A study of Gallus gallus with 6 samples.

Results

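TMPRSS9, PROC and CAPN2 are 3 proteases whose mRNA was followed in the magnum, the segment of the hen's oviduct that secretes the egg white. They were taken by their Ensembl identifiers, 3 of the 19152 genes counted. The study had picked all 3 from these same libraries for a higher expression in laying hens, so that the direction of each difference is a description and its test is not independent evidence. The libraries were made from magnum RNA of 3 laying Hy-line hens (Hy-Line white in the methods of the study) aged 35 weeks, sampled 3 h post-ovulation with the egg in the magnum, and of 3 non-laying Hy-line hens aged between 35 and 60 weeks. These non-laying hens were drawn from different flocks and had an atrophied oviduct at necropsy. Each library was 1 hen. The age of each non-laying hen and the flock of the laying hens are not given in the sources used here. Laying can therefore not be told apart from age or flock.

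Proteases cut peptide bonds, and they are classed by the residue that does the cutting, a serine in TMPRSS9 and PROC and a cysteine in CAPN2. TMPRSS9, or polyserase-1, is a type II transmembrane protease that in mammals carries several serine protease domains in tandem on a single chain. PROC encodes protein C, a vitamin K-dependent zymogen of the plasma that is made chiefly in the liver of mammals. Thrombin bound to thrombomodulin activates it, and activated protein C inactivates the coagulation factors Va and VIIIa. CAPN2 encodes the large, catalytic subunit of m-calpain, a calcium-dependent protease of the cytosol that makes limited cuts in cytoskeletal and adhesion proteins and is held in check by calpastatin.

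On Galgal 5.0, TMPRSS9 (ENSGALG00000000458) lies on chromosome 28 from 603118 to 614593, with 3288 bp of exon. PROC (ENSGALG00000001780) lies on chromosome 9 from 1263547 to 1272258, with 1302 bp of exon. CAPN2 (ENSGALG00000009360) lies on chromosome 3 from 17691064 to 17711286, with 2883 bp of exon. All 3 are annotated as protein-coding. The study also assayed these genes by qPCR, and its primers are shown because the reading of that assay rests on them. What they amplify was not checked here. They are written 5′ to 3′, without marked bases.
TMPRSS9 forward: gctttgatatttacagtgacccc
TMPRSS9 reverse: aagggtgcttgtagatacgg
PROC forward: agcataaagcttgtcagaagt
PROC reverse: tgtaaaatatcgaggcatgg
CAPN2 forward: gacctgctagataacgatgg
CAPN2 reverse: atacgagttcatggttccag
The PROC primers had the fewest G and C bases, 38.1% in the forward and 40.0% in the reverse primer, against 43.5% to 50% in the primers of TMPRSS9 and CAPN2. The qPCR readings themselves were not analysed here.

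The libraries summed to 24948527 to 25763750 gene counts in laying hens and 18840068 to 24917234 in non-laying hens. A single gene, ENSGALG00000012869, took 49.4% to 53.6% of the counts in laying hens and 1.33% to 36.5% in non-laying hens. TMM scaling, a trimmed mean of the log ratios between libraries, was applied, with factors of 0.4449 to 0.6216 in laying hens and 1.192 to 2.94 in non-laying hens. CPM (counts-per-million) below are relative to the scaled library size, whereas RPKM are the deposited values, which are set against a gene length and the unscaled total. That length matched the listed exon length for TMPRSS9 and PROC, but not for CAPN2. Of the listed markers of cell types, the tables used here pair only 11 with an identifier, all of them genes that the study called in these libraries. The 1 paired epithelial marker, CGN, had 165 to 401 CPM in laying hens and 31.0 to 58.7 CPM in non-laying hens, and the 1 paired egg-white marker, AVD (avidin), had 838 to 2000 CPM in laying hens and 2.26 to 3.03 CPM in non-laying hens. COL3A1 and LUM, 2 of 10 stromal markers, summed to 254 to 279 CPM in laying hens and 1030 to 2050 CPM in non-laying hens. The leukocyte marker PTPRC had 3.68 to 5.75 CPM in laying hens and 12.1 to 34.1 CPM in non-laying hens, and the ciliated cell marker CCDC39 had 2.96 to 9.69 CPM in laying hens and 18.1 to 33.0 CPM in non-laying hens. In sum, 5 of 8 proliferation markers had 9.24 to 14.1 CPM in laying hens and 69.2 to 275 CPM in non-laying hens. None of the 11 was at 0 in any library, and no marker of smooth muscle, endothelium or erythrocytes was paired. In such bulk tissue, fewer cells of a type and less RNA per cell cannot be told apart, and the part of these markers in the results below was not tested.

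TMPRSS9 was the protease that separated the groups most. It had 2748, 3272 and 758 counts in laying hens 1, 2 and 3, against 18, 12 and 92 counts in non-laying hens 1, 2 and 3. Each laying hen exceeded all non-laying hens. Laying hen 3 was the lowest of its group and non-laying hen 3 the highest of its group. Hens are numbered within each group, so a shared number links no hens across groups. On the scaled CPM these were 246, 204 and 50.7 CPM in laying hens, against 0.46, 0.404 and 1.66 CPM in non-laying hens. The lowest laying hen was 30.5 times the highest non-laying hen. The group means were 167 ± 103 CPM in laying hens and 0.842 ± 0.71 CPM in non-laying hens (SD, n = 3 each). The log2 fold change of TMPRSS9, laying over non-laying, was 7.57 ± 0.85 (standard error) with a Benjamini-Hochberg adjusted p = 0.00737 in the quasi-likelihood F test of edgeR, the second highest of the 12499 genes tested.

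PROC had the fewest counts of the 3 proteases in the laying hens. It had 42, 88 and 49 counts in laying hens 1, 2 and 3, against 14, 18 and 40 counts in non-laying hens. On the scaled CPM these were 3.77, 5.49 and 3.27 CPM in laying hens, against 0.358, 0.606 and 0.722 CPM in non-laying hens. No laying hen overlapped a non-laying hen on that scale, although the counts of laying hen 1 and non-laying hen 3 differed by only a few reads. The means were 4.18 ± 1.17 CPM in laying hens and 0.562 ± 0.186 CPM in non-laying hens (SD, n = 3 each). The log2 fold change of PROC was 2.88 ± 0.45 (standard error, with adjusted p = 0.0134 by edgeR).

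CAPN2 had at least 228 counts in all 6 libraries. It had 810, 1627 and 899 counts in laying hens 1, 2 and 3, against 228, 902 and 508 counts in non-laying hens 1, 2 and 3. The counts of the groups overlapped, since non-laying hen 2 had more CAPN2 reads than laying hens 1 and 3. On the scaled CPM these were 72.6, 102 and 60.1 CPM in laying hens, against 5.83, 30.4 and 9.17 CPM in non-laying hens, and there the groups no longer overlapped. The means were 78.1 ± 21.3 CPM in laying hens and 15.1 ± 13.3 CPM in non-laying hens (SD, n = 3 each). The log2 fold change of CAPN2 was 2.37 ± 0.58 (standard error, with adjusted p = 0.044 by edgeR), close to the threshold of 0.05.

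**Figure D1:**
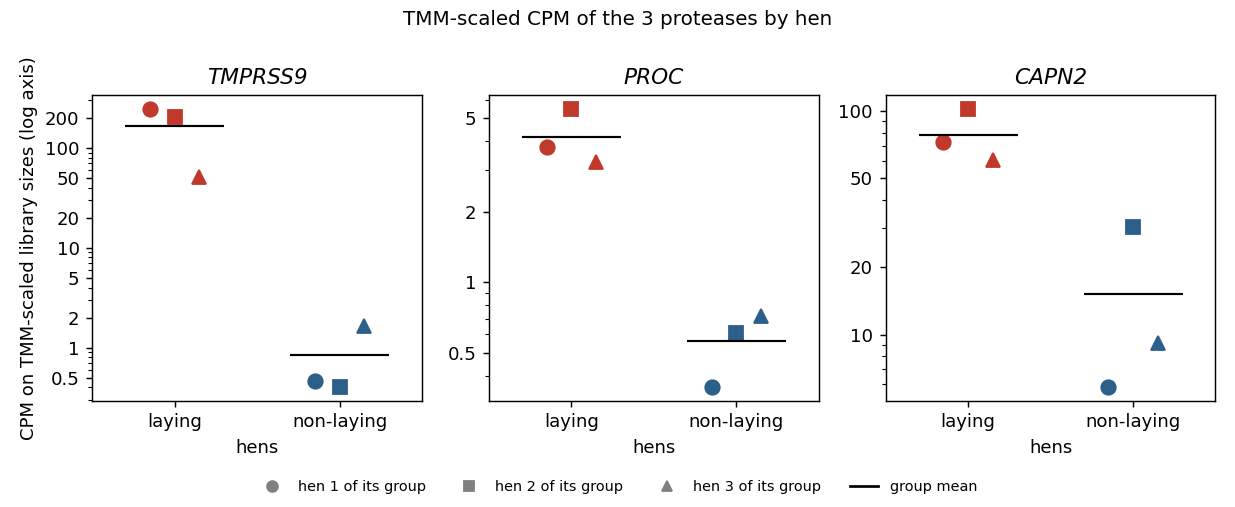
Scaled CPM (log axis) of TMPRSS9, PROC and CAPN2 in each of 3 laying and 3 non-laying hens, with each panel on its own axis, symbols for the hens and a line for the group mean. The laying hens lie above the non-laying hens in all 3 panels, by the widest gap for TMPRSS9 (50.7 CPM in the lowest laying hen against 1.66 CPM in the highest non-laying hen).

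All 3 proteases passed both thresholds used by the study (more than a 3-fold difference at an adjusted p under 0.05) in the direction of laying hens, as did 1.28% of all genes tested. The members had been picked for this contrast, so nothing is read from that count. On the scaled CPM all laying hens exceeded all non-laying hens in 15.1% of the genes tested, the 3 proteases included. The deposited counts of the 3 genes were exactly whole, with no tolerance, in all 6 libraries.

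PROC and CAPN2 overlapped between the groups on RPKM, and TMPRSS9 did not. On RPKM, which leave the library total unscaled, TMPRSS9 had 33.3, 38.6 and 9.24 RPKM in laying hens 1, 2 and 3, against 0.241, 0.146 and 1.49 RPKM in non-laying hens. The groups stayed apart, with the lowest laying hen at 6.22 times the highest non-laying hen, as they did in the direction of laying hens in 0.456% of the genes tested. PROC had 1.29, 2.62 and 1.51 RPKM in laying hens, against 0.473, 0.555 and 1.63 RPKM in non-laying hens. Non-laying hen 3 was therefore above laying hens 1 and 3. CAPN2 had 11.7, 22.9 and 13.1 RPKM in laying hens, against 3.65, 13.1 and 9.74 RPKM in non-laying hens, and only laying hen 2 was clear of all non-laying hens. The difference in mean log2(RPKM), laying minus non-laying, was 5.93 for TMPRSS9 (p = 0.1, two-sided exact permutation test). This p is the lowest that 3 hens against 3 allow. The difference was 1.19 for PROC (p = 0.3, same exact test) and 0.97 for CAPN2 (p = 0.3, same exact test).

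**Figure D2:**
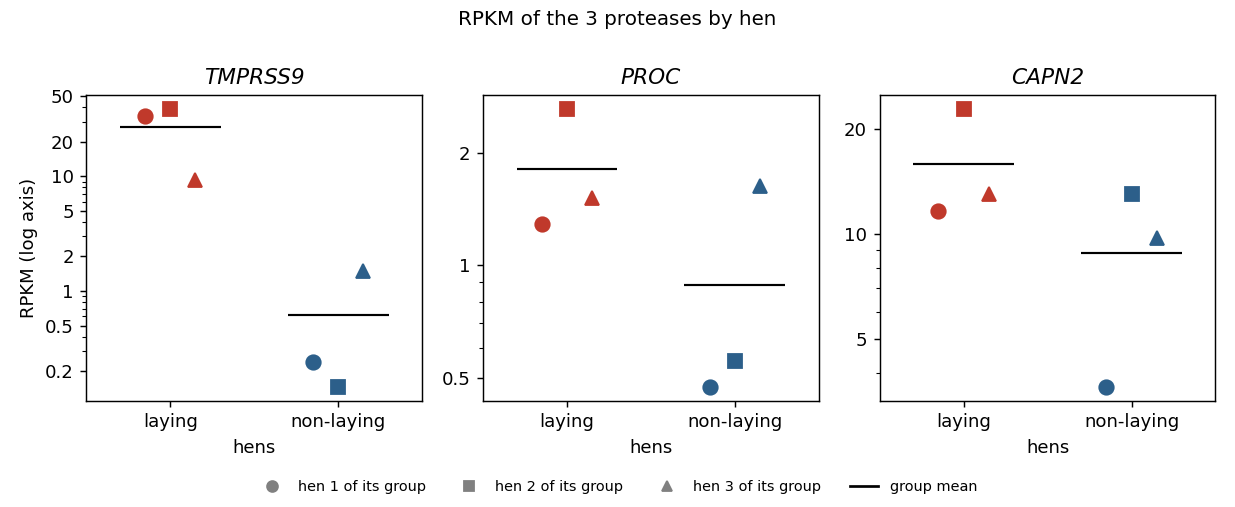
RPKM (log axis) of the 3 proteases in each of 3 laying and 3 non-laying hens, with symbols for the hens and a line for the group mean. TMPRSS9 keeps its groups apart, whereas non-laying hen 3 reaches 1.63 RPKM of PROC and non-laying hen 2 reaches 13.1 RPKM of CAPN2, within the range of the laying hens.

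The lowest laying and the highest non-laying hen of each gene were also compared by their counting error. Relative to the unscaled total, TMPRSS9 had 30.4 CPM in laying hen 3 (95% Clopper-Pearson interval 28.3 to 32.6) and 4.88 in non-laying hen 3 (3.94 to 5.99), and these intervals did not meet. PROC had 1.68 unscaled CPM in laying hen 1 (1.21 to 2.26) and 2.12 in non-laying hen 3 (1.52 to 2.89), and these intervals met. CAPN2 had 32.3 unscaled CPM in laying hen 1 (30.1 to 34.6) and 36.2 in non-laying hen 2 (33.9 to 38.6), and these intervals met as well. For PROC and CAPN2 the non-laying hen was thus the higher of its pair. Whether the hens of a pair differ was not tested, as intervals that meet do not decide it. These intervals hold for counting error alone, as no molecular identifiers were used and a molecule may have been read more than once.

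On the unscaled total counts the log2 fold change of TMPRSS9 was 5.45 ± 0.71 (standard error, with adjusted p = 1.79e-06 by edgeR), and it passed both thresholds as 0.376% of all genes did in the direction of laying hens. PROC had a log2 fold change of 1.03 ± 0.81 (standard error, with adjusted p = 0.225 by edgeR) and CAPN2 one of 0.84 ± 0.49 (standard error, with adjusted p = 0.108 by edgeR), and neither passed. The median log2 fold change of all genes tested was 0.00 with TMM and -1.80 on the total counts. PROC and CAPN2 were above the median gene on both scales. A change of scaling moves all genes nearly alike, however, so this position is no separate check on the scaling. Within a library, the rank of a gene by RPKM does not depend on the scaling at all. Comparing ranks between hens still takes the other tested genes as the reference, as TMM does. It is therefore no separate check on that choice. TMPRSS9 stood at the 95.2, 94.9 and 76.3 percentile of the genes tested in laying hens 1, 2 and 3, against 1.1, 0.8 and 4.7 in non-laying hens. The transcript was thus among the more abundant of the tested genes in laying hens and among the rarest in non-laying hens. PROC stood at the 35.2, 41.6 and 31.2 percentile in laying hens, against 3.1, 6.7 and 5.2 in non-laying hens. CAPN2 stood at the 85.2, 90.5 and 83.5 percentile in laying hens, against 25.7, 69.0 and 31.7 in non-laying hens. By this rank the groups did not overlap for any of the 3 proteases, as was the case in the direction of laying hens for 15.0% of the genes tested.

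**Figure D3:**
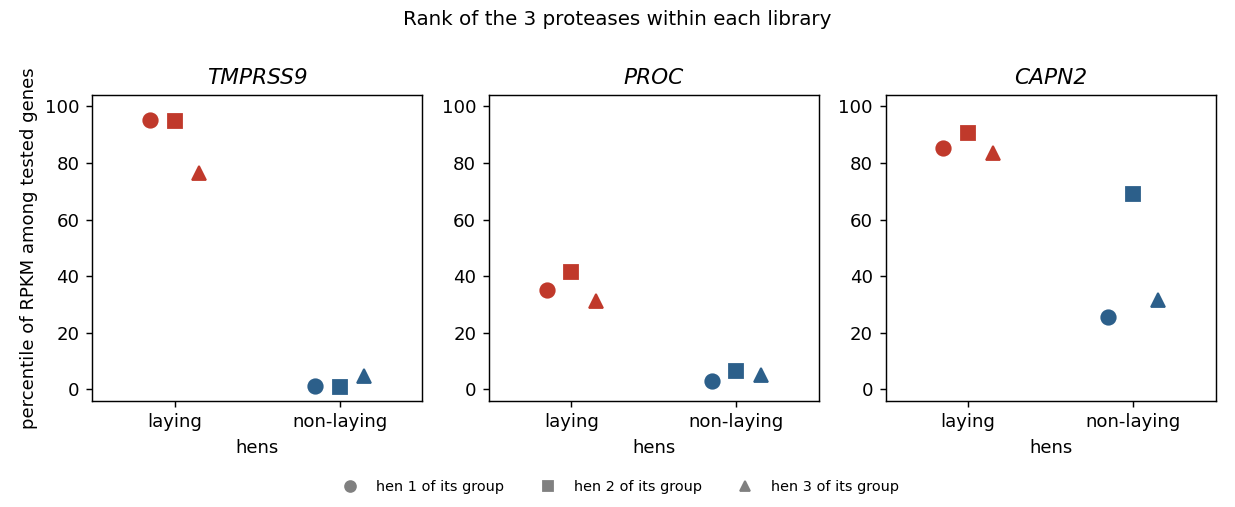
Percentile of each protease among the genes tested, ranked by RPKM within each of 3 laying and 3 non-laying hens (linear axis, symbols for the hens). TMPRSS9 lies between 76.3 and 95.2 in laying hens and between 0.8 and 4.7 in non-laying hens, and CAPN2 of non-laying hen 2 comes nearest to the laying hens, at 69.0.

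Per kilobase, the order of the 3 proteases differed between the groups. In laying hens 1 and 2 TMPRSS9 was highest, CAPN2 came next and PROC was lowest, with TMPRSS9 at 2.85 and 1.69 times the RPKM of CAPN2. In laying hen 3 CAPN2 was above TMPRSS9, which had 0.707 times its RPKM. In all 3 non-laying hens CAPN2 was highest and TMPRSS9 was lowest, at 0.0659, 0.0112 and 0.152 times the RPKM of CAPN2. TMPRSS9 also lay below PROC there, at 0.509, 0.264 and 0.911 times its RPKM, whereas it had 25.9, 14.7 and 6.13 times the RPKM of PROC in the laying hens. In the non-laying hens this order rests on 18, 12 and 92 counts of TMPRSS9 and 14, 18 and 40 counts of PROC. Whether it holds beyond counting error was not tested. The RPKM of CAPN2 correspond to a length of 2746 to 2767 bp, somewhat short of the 2883 bp of exon listed, so that its level against the other 2 genes is uncertain by that margin.

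Ratios of counts between 2 proteases of a library are free of its scaling, and all 3 such ratios were compared. The log2 ratio of TMPRSS9 to CAPN2, with 0.5 added to each count, was 1.76, 1.01 and -0.25 in laying hens 1, 2 and 3, against -3.63, -6.17 and -2.46 in non-laying hens. The mean was 0.84 ± 1.01 in laying hens and -4.09 ± 1.90 in non-laying hens, a difference of 4.93 without overlap (SD, n = 3 each, two-sided exact permutation test, p = 0.1). It was 3.88 without non-laying hen 2 and 5.74 without non-laying hen 3. The log2 ratio of TMPRSS9 to PROC was 6.02, 5.21 and 3.94 in laying hens, against 0.35, -0.57 and 1.19 in non-laying hens, a difference of 4.73 without overlap (same exact test, p = 0.1). The gap between the groups was therefore wider for TMPRSS9 than for either of the other proteases, at the smallest p that this design can give, which does not reach 0.05.

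The log2 ratio of PROC to CAPN2 was -4.25, -4.20 and -4.18 in laying hens 1, 2 and 3, against -3.98, -5.61 and -3.65 in non-laying hens. The laying hens lay close together, inside the range of the non-laying hens. PROC had only 42, 88 and 49 counts in these laying hens, and counting error alone would spread the ratio more widely than that. Their closeness is therefore not read as a result. The mean was -4.21 ± 0.04 in laying hens and -4.41 ± 1.05 in non-laying hens, a difference of 0.20 that was within the spread between hens (SD, n = 3 each, two-sided exact permutation test, p = 1). This difference turned to -0.40 when non-laying hen 2, the hen with the most CAPN2 of its group, was left out.

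**Figure D4:**
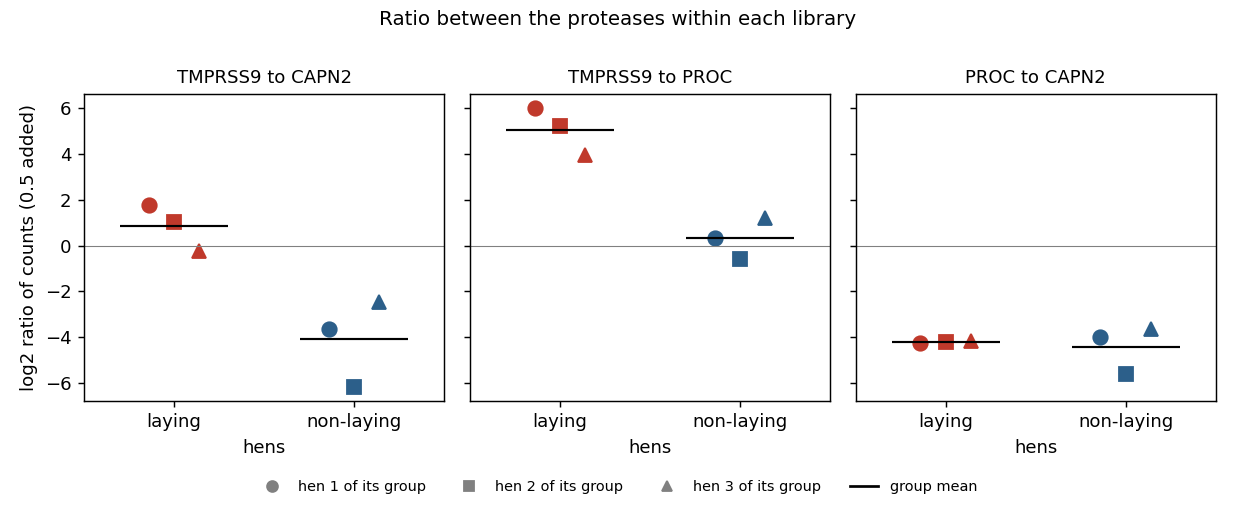
Log2 ratio of the counts of 2 proteases (0.5 added to each count) in each of 3 laying and 3 non-laying hens, with symbols for the hens and a line for the group mean. Both ratios with TMPRSS9 on top separate the groups, by 4.93 and 4.73, while the ratio of PROC to CAPN2 runs from -4.25 to -4.18 in laying hens and from -5.61 to -3.65 in non-laying hens.

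On the scaled CPM, TMPRSS9 and CAPN2 were highest in different hens of each group. On counts and RPKM, however, both were highest in laying hen 2 among the laying hens (38.6 RPKM of TMPRSS9 and 22.9 RPKM of CAPN2). The values that follow are on the scaled CPM. Percentiles rank the log2 ratio with 0.5 CPM added to both values, whereas the multiples of a mean have nothing added. PROC and CAPN2 had 0.859 and 0.898 times the mean of the others in laying hen 1 and 1.56 and 1.53 times in laying hen 2. As PROC had only 42 and 88 counts in these hens, nothing is read from this likeness. TMPRSS9 of laying hen 3 had 0.225 times the mean CPM of laying hens 1 and 2, a deviation lower than that of all but 0.7% of the 11452 genes with at least 1 CPM on average. In that hen PROC had 0.707 and CAPN2 0.69 times the mean of the other laying hens, at the 21.6 and 17.6 percentile of these genes. Avidin shared part of the low level of laying hen 3, at 0.464 times the mean of the others, which was the 4.6 percentile. In non-laying hen 3, by contrast, TMPRSS9 had 3.84 times the mean CPM of the other non-laying hens. With 0.5 CPM added, its log2 ratio there was 1.21, at the 94.9 percentile. Non-laying hen 3 was the hen in which ENSGALG00000012869 took 1.33% of the counts, the lowest share of the 6 libraries. CAPN2 deviated on both sides in the non-laying hens. In non-laying hen 1 it had 0.295 times the mean of the others. With 0.5 CPM added, its log2 ratio there was -1.68, at the 0.4 percentile. In non-laying hen 2, which had the highest share of ENSGALG00000012869 among the non-laying hens (36.5%), CAPN2 had 4.05 times the mean of the others. With 0.5 CPM added, its log2 ratio there was 1.95, at the 99.7 percentile. In non-laying hen 2 TMPRSS9 had 0.381 times and PROC 1.12 times the mean of the others. On RPKM non-laying hen 1 (3.65 RPKM of CAPN2) was the one apart from non-laying hens 2 and 3 (13.1 and 9.74 RPKM). Which hen stands out thus depends on the scaling. Whether the share of ENSGALG00000012869 goes with these deviations was not tested. The coefficient of variation of the scaled CPM was 61.6% for TMPRSS9, 27.9% for PROC and 27.3% for CAPN2 in laying hens, against 84.4%, 33.1% and 88.0% for these genes in non-laying hens.

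The 3 proteases differed in how often they stayed past both thresholds with single hens left out. TMPRSS9 stayed past both thresholds without any 1 of the 6 hens, with log2 fold changes from 7.20 (without laying hen 1) to 8.57 (without non-laying hen 3) and an adjusted p from 0.00172 to 0.0426 (edgeR, Benjamini-Hochberg). PROC lost its call without laying hen 1 or laying hen 2, at an adjusted p of 0.0726 and 0.0732 and log2 fold changes of 2.96 and 2.64 (edgeR). CAPN2 lost its call without any 1 of laying hens 1, 2 and 3, at an adjusted p of 0.134, 0.142 and 0.0646, and without non-laying hen 1 or 3, at 0.0916 and 0.0847 (edgeR, log2 fold changes from 1.98 to 2.53). Without non-laying hen 2 the log2 fold change of CAPN2 was 3.39 ± 0.38 (standard error, with adjusted p = 0.0121 by edgeR). In place of 623 of all genes tested, 20 passed both thresholds without laying hen 1, 16 without laying hen 2 and 546 without laying hen 3. Without non-laying hens 1, 2 and 3, respectively, 285, 639 and 563 passed, so that the most genes passed without non-laying hen 2. The calls that PROC and CAPN2 lost without laying hen 1 or 2 went together with most calls of the series. They are therefore not read as a trait of these 2 genes. The log2 fold change of PROC stayed between 2.64 and 3.13 over the 6 omissions.

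**Figure D5:**
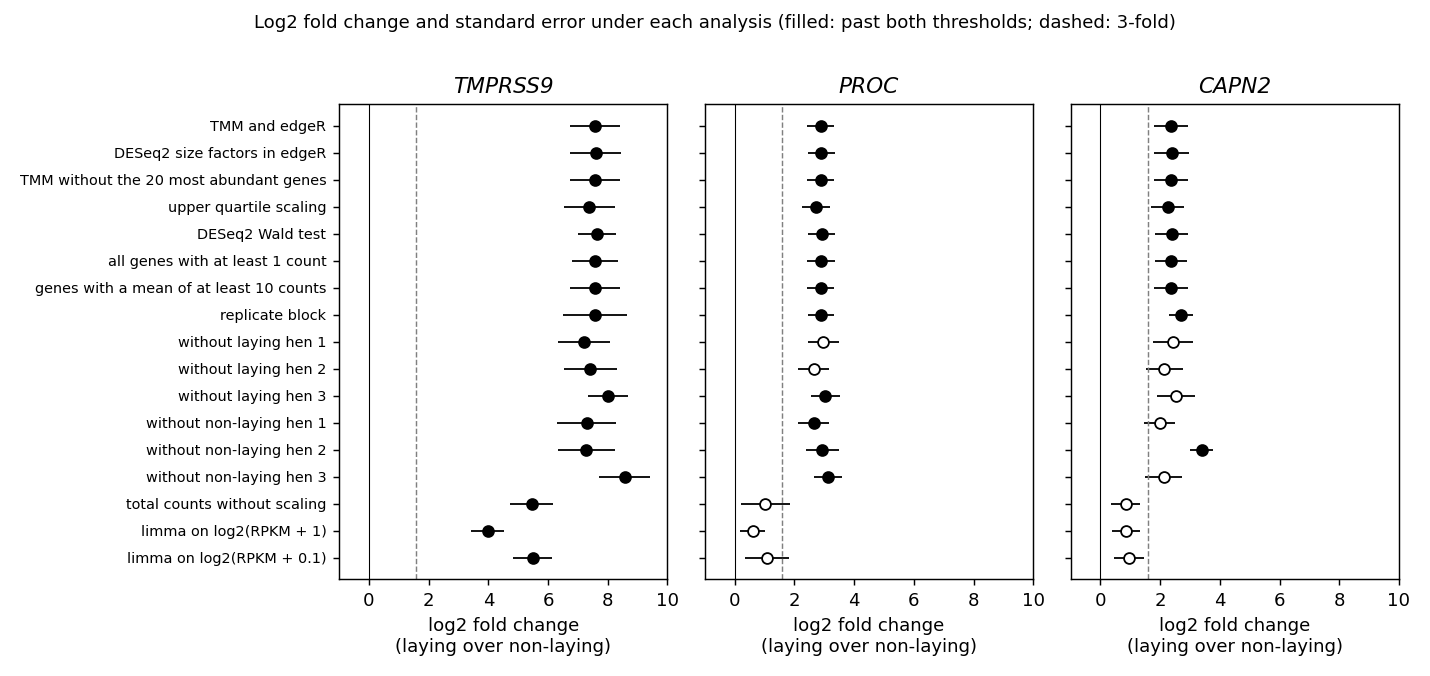
Log2 fold change, laying over non-laying, of the 3 proteases under each analysis, with bars of 1 standard error, filled points where both thresholds were passed, a dashed line at a 3-fold change and a solid line at no change. TMPRSS9 is filled throughout, from 3.98 to 8.57, whereas PROC falls to between 0.60 and 1.08 and CAPN2 to between 0.84 and 0.96 in the 3 analyses on unscaled totals or RPKM.

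Few other genes of these protease systems could be followed by name. Of 144 genes listed for the transmembrane serine proteases, plasminogen activation, the protein C pathway, calpains and their substrates, cathepsins and secretory convertases, an identifier was found for 6 in the tables used here, the 3 proteases and SERPINB2, CTSO and PCSK4. Neither calpastatin nor the small calpain subunit, and neither thrombomodulin nor plasminogen, was among them, and these are not analysed here. The tables name only genes that the study called in these libraries, so that the directions below are descriptions. Of SERPINB2, CTSO and PCSK4, 2 passed both thresholds, as did 4.98% of all genes tested in either direction, and nothing is read from that count. SERPINB2 (ENSGALG00000019552), an inhibitor of the plasminogen activators in mammals, had 51.1, 90.5 and 2.61 CPM in laying hens, against 0.588, 0.741 and 1.68 CPM in non-laying hens. Its log2 fold change was 5.55 ± 1.11 (standard error, with adjusted p = 0.0255 by edgeR). Like TMPRSS9 it was lowest in hen 3 of the laying hens and highest in hen 3 of the non-laying hens, and on RPKM laying hen 3 (1.26 RPKM) was below non-laying hen 3 (3.98 RPKM).

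CTSO and PCSK4 had lower mean CPM in laying hens, as had the serine proteases added below after their values were seen. CTSO (ENSGALG00000009373), the lysosomal cysteine protease cathepsin O, had 4.21, 4.43 and 6.55 CPM in laying hens, against 20.1, 12 and 23.4 CPM in non-laying hens, and its log2 fold change was -1.87 ± 0.33 (standard error, with adjusted p = 0.0176 by edgeR). PCSK4 (ENSGALG00000026384), a convertase known from the germ cells of mammals, had 0.359, 1.5 and 0.468 CPM in laying hens, against 3.48, 2.29 and 7.94 CPM in non-laying hens, and its log2 fold change of -2.52 did not pass the threshold (adjusted p = 0.0599 from edgeR). Outside the lists, and chosen after their values were seen, were 3 serine proteases and 1 inhibitor that the deposited table names. PRCP, the lysosomal prolylcarboxypeptidase, had a log2 fold change of -2.33 (adjusted p = 0.0181 from edgeR). DPP4, a dipeptidyl peptidase of the cell surface, had one of -2.13 (adjusted p = 0.0387 from edgeR). ACR, the protease acrosin of the sperm acrosome, had 1, 0 and 2 counts in laying hens against 31, 28 and 71 counts in non-laying hens, and PI15, a secreted peptidase inhibitor, had 0, 1 and 0 counts in laying hens against 19, 28 and 37 counts in non-laying hens. Both passed the thresholds as lower in laying hens (adjusted p = 0.0266 for ACR and 0.0231 for PI15, edgeR).

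Other genes resembled the 3 proteases in their pattern over the 6 libraries, as measured by Pearson's r on log2(CPM + 0.5) among 11451 other genes. Such an r is set mainly by the gap between the groups, the points share the library scaling, and it carries no test. The 5 genes most like TMPRSS9 had an r of 0.9947 to 0.9981, none of which the tables used here name, and all differed less, with log2 fold changes from 0.53 to 1.40. The gene most like PROC was ASPG, an asparaginase, with an r of 0.9976 and 56.7, 81.4 and 54.3 CPM in laying hens, against 14.3, 16.5 and 20.9 CPM in non-laying hens. Among the 5 genes most like CAPN2 were LOC771972, with an r of 0.9975, and CREB3L2, a membrane-bound transcription factor of the endoplasmic reticulum, with an r of 0.9878. CREB3L2 shared the high level of non-laying hen 2, with 95.6, 130 and 68.6 CPM in laying hens, against 10.3, 34.3 and 19.3 CPM in non-laying hens. Between the proteases r was 0.9801 for TMPRSS9 and PROC, 0.8577 for TMPRSS9 and CAPN2, and 0.9121 for PROC and CAPN2.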

How the data were processed

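The authors cleaned their 76 bp reads with Prinseq, aligned them to Galgal 5.0 in Array Studio and counted them over the genes of Ensembl release 94. They deposited these estimated counts (expected counts) without normalization (5.98% to 8.84% of a library's values had decimals), and RPKM, whose values follow from the counts, the library's summed counts and a length that for CAPN2 is shorter than the exon length listed. The deposited table of 540 genes also holds start, end and exon length in bases, an annotation of other kind that was used, and the authors' own fold changes, p-values and group means, which were not used.

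Counts were rounded. Genes were kept by filterByExpr (12499 of 19152), scaled by TMM and tested, two-sided, by the quasi-likelihood F test (glmQLFit, glmQLFTest) in edgeR 4.0.16 on R 4.3.3 with group as the single term and p adjusted over all genes tested. Standard errors are the log2 fold change over the square root of F. The code was tested on simulated data. No library lacked counts of the 3 proteases. Ratios were compared by exact permutation tests in Python 3.11.15 with scipy 1.17.1. Alternatives used DESeq2 1.42.0, limma 3.58.1, other scalings and filters, each hen left out and replicate number as a block.

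The 3 proteases and the lists were chosen with earlier results of these data known. Named in the text were the proteases, list members that passed both thresholds or had the highest RPKM of their list, and the 5 genes most like each protease. PRCP, DPP4, ACR, PI15, MMP1, MMP9 and MMP10 were added after their values were seen. Symbols came from the deposited table and the supplementary list of called genes, which name 409 genes. RefSeq's table for GRCg7b shares no identifiers with the files.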

Additional observations from a re-analysis of the deposited data

How the results depend on the processing

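TMPRSS9 remained past both thresholds under all 16 alternatives, including upper quartile scaling, which was added after seeing the data, with log2 fold changes from 3.98 (limma on log2(RPKM + 1)) to 8.57. PROC did so under 11 and CAPN2 under 8 of the 16, and both stayed higher in laying hens under all of them. The log2 fold change of PROC was 1.03 and that of CAPN2 0.84 on total counts without scaling, 0.60 and 0.86 with limma on log2(RPKM + 1), and 1.08 and 0.96 with limma on log2(RPKM + 0.1), all short of the thresholds. With single hens left out, the log2 fold change ranged from 7.20 to 8.57 for TMPRSS9, from 2.64 to 3.13 for PROC and from 1.98 to 3.39 for CAPN2. The difference in the log2 ratio ranged from 3.88 to 5.74 for TMPRSS9 to CAPN2 and from 4.25 to 5.29 for TMPRSS9 to PROC. That of PROC to CAPN2 ranged from -0.40, without non-laying hen 2, to 0.58.

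In place of 623 genes past both thresholds, 7896 passed on total counts without scaling, 966 with DESeq2's Wald test, 3845 and 7040 with limma on log2(RPKM + 1) and log2(RPKM + 0.1), 939 without a fold threshold, 397 with the replicate block and 16 to 639 with single hens left out. The share higher in laying hens was 25.7% with TMM, 0.595% on total counts and 0.728% and 0.625% with limma. Of SERPINB2, CTSO and PCSK4, 2 passed with TMM, all 3 on total counts, with DESeq2's Wald test, with all genes of at least 1 count and in both limma analyses, 1 with the replicate block and 0 to 2 with single hens left out. Same-numbered hens did not deviate together (r = 0.179, -0.0653 and 0.026 for numbers 1, 2 and 3), so the numbers were not taken as pairs. With the block the log2 fold changes were 7.57 for TMPRSS9, 2.89 for PROC and 2.69 for CAPN2, all past the thresholds. The comparisons with TBP, GAPDH and ACTB were not run, because the tables used here give no identifier for them. The lowest counts were 12 for TMPRSS9, 14 for PROC and 228 for CAPN2.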

Other observations

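The ratio of PROC to CAPN2 counts was 0.0524, 0.0544 and 0.0550 in laying hens 1, 2 and 3, against 0.0635, 0.0205 and 0.0796 in non-laying hens. The closeness of the laying hens is not read as a result, given their few PROC counts. MMP1, a collagenase, followed neither TMPRSS9 nor SERPINB2 in laying hen 3, with 2.69, 6.81 and 3.01 CPM in laying hens, against 0.0511, 0.0673 and 0.0903 CPM in non-laying hens. The latter rest on only 2, 2 and 5 counts. MMP9, a gelatinase, was lowest in laying hen 3 and highest in non-laying hen 3 of its groups, as TMPRSS9 was, with 3.32, 7.43 and 1.27 CPM in laying hens, against 0.0767, 0.101 and 0.289 CPM in non-laying hens. The non-laying hens had only 3, 3 and 16 counts of MMP9. On RPKM laying hen 3 (0.31 RPKM) was below non-laying hen 3 (0.346 RPKM). MMP10, a stromelysin, had 62.6, 102 and 23.8 CPM in laying hens, against 12.7, 16.2 and 2.47 CPM in non-laying hens. It was lowest in laying hen 3 and in non-laying hen 3 of their groups. It did not pass the thresholds (adjusted p = 0.0638 from edgeR). These genes were chosen after their values were seen.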
